A study of Mus musculus with 30 samples.

Results

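The eyes of adult mice were compared with brain cortex and cerebellum, to ask which genes that mark the brain were kept or lost in the eye and which genes were gained there. All mice were male C57BL/6 aged 28 weeks by the labels, with no treatment or genetic change named for any group. The comparison used 6 of the 30 arrays of the series (2 eyes, 2 brain cortex and 2 cerebellum), chosen by their labels, and the remaining 24 arrays (2 for each of 12 other tissues) served as the non-neural background. Each array paired RNA of the tissue in the Cy3 dye with a common reference in the Cy5 dye, RNA pooled from 11 mouse cell lines to which RNA of embryonic stem cells had been added, and the dyes were never exchanged. All values below are log2(Cy3/Cy5) unless another scale is named, so a difference between tissues is a difference of this ratio. Levels of different probes were not compared. The sample was labelled only as eyes, and which structures were taken with the globe was not given. In bulk tissue, fewer cells of a type and less RNA per cell cannot be told apart. The series description says that most replicates came from different animals, so p-values measure the spread between pairs of mice, and the precision is limited by the number of arrays.

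The retina grows out of the embryonic forebrain, so its neurons share much of their machinery with the brain. Rods and cones, the photoreceptors, are neurons that turn light into an electrical signal through arrestin, phosducin and other proteins of the phototransduction cascade, and the homeodomain factor CRX switches on many of their genes. The lens in front of them is made of fibre cells packed with crystallins, and the cornea, the conjunctiva and the muscles that move the globe are epithelium, connective tissue and striated muscle rather than neural tissue.

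The promoters of 8 genes on which the results turn are shown first, because they belong to the photoreceptor, the lens and the kept neuronal genes described below. Each is the 150 bases before the annotated start of the gene (RefSeq, GRCm38.p6), written 5′ to 3′ on the strand of the gene. In the photoreceptor genes Crx (chr7:15879956-15880105, minus strand), Sag (chr1:87803530-87803679, plus strand) and Pdc (chr1:150319267-150319416, plus strand), capitals mark TAATCC on either strand, a core sequence of CRX binding.
Crx: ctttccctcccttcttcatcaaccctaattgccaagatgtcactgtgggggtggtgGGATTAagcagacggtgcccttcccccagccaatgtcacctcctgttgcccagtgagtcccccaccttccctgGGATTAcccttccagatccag
Sag: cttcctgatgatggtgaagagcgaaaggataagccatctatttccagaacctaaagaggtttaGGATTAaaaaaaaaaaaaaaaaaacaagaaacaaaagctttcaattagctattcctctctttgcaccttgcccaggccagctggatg
Pdc: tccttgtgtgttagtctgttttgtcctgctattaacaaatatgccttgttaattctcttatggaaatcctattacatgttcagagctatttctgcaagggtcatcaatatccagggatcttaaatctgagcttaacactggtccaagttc
TAATCC occurred 2 times in the Crx window, 1 time in that of Sag and 0 times in that of Pdc, and 3.6% of 32817 mouse promoters of the same length held it on either strand. Of the 7 photoreceptor genes called higher in eyes that had a promoter sequence, 3 held it (Crx, Mpp4 and Sag). In the gamma-crystallin genes of the lens, Crygb (chr1:65082291-65082440, minus strand), Crygc (chr1:65073533-65073682, minus strand), Crygd (chr1:65063441-65063590, minus strand) and Crygf (chr1:65926372-65926521, plus strand), capitals mark TATATA, a form of the TATA box.
Crygb: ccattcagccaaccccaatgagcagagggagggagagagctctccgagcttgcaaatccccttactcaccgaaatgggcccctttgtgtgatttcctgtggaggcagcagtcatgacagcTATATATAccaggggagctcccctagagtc
Crygc: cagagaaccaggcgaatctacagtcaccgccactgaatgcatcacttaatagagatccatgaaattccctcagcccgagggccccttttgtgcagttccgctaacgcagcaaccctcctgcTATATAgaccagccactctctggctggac
Crygd: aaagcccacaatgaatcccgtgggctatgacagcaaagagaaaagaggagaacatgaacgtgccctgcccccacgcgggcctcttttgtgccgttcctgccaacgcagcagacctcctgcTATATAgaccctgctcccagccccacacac
Crygf: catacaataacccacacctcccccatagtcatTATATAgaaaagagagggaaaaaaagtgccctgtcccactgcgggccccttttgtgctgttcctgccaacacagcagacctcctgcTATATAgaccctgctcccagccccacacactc
These windows held a copy of TATATA starting 28 to 32 bases before the gene start. TATATA was held by 5 of the 7 lens genes called higher (Cryga, Crygb, Crygc, Crygd and Crygf), against 2.97% of the promoters. These 5 are gamma-crystallin genes of a single family, so they do not count as independent genes. In Scg2 (chr1:79440027-79440176, minus strand), a gene of neuronal secretory granules kept in the eye, capitals mark TGACGTCA, the cyclic AMP response element, which 1.36% of the promoters held.
Scg2: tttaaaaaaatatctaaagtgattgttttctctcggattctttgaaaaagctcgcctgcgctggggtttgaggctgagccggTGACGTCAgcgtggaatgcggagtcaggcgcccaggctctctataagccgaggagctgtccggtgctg
The matches describe the letters of these windows, and binding was not measured.

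The 2 eye arrays correlated with each other at r = 0.98 over the 21026 probes tested, and with the brain arrays at r = 0.67 to 0.73 (across probes, which do not count as replicates). Cortex and cerebellum correlated at r = 0.92 to 0.93. Array eyes 2 stood nearer to the brain (r = 0.72 to 0.73) than array eyes 1 did (0.67 to 0.68), and results that rest on 1 of them are given without it below. The median SD of a probe between the 2 arrays was 0.11 in eyes, 0.10 in cortex and 0.08 in cerebellum. Cy3 was well above background for about 75.7% of the probes on the eye arrays and for 60.7% to 76.9% on the brain arrays. Both eye arrays lay on slide 2 and the brain arrays on slides 1 and 5, so no slide gives a value within it.

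The markers of the eye label were high in the eyes: the 6 of 12 that were tested (Pdc, Sag, Crx, Rp1, Crygd and Crygc) were all called higher than brain, and their summed linear ratios were 396 to 403 in eyes, 5.17 to 7.63 in brain and 5.27 to 88 on the other 24 arrays. Of 9 markers of the brain label 4 were tested, with sums of 14.8 to 20.3 in eyes and 47.5 to 54.7 in brain, against 2.91 to 15 in the other tissues, so the lowest eye sum was no higher than the highest of those. Markers of 2 other tissues also stood higher in eyes than in brain. Skeletal muscle markers (5 of 6 called higher) summed to 31.8 to 37.7 in eyes and 4.15 to 5.04 in brain. Squamous epithelium markers (3 of 4 called higher) summed to 29.2 to 42.9 in eyes and 3.56 to 4.28 in brain. Krt10, the squamous marker not called, had mean log2 ratios of 0.99 in eyes, 1.52 in cortex and 1.25 in cerebellum, against 5.44 in skin. None of the 2 blood and immune markers tested was called. Their part in the results was not tested.

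Between eyes and brain 2607 of the 21026 probes were called higher in eyes (12.4%) and 1942 lower (9.24%), at an adjusted p under 0.05 and a log2 difference of at least 1 (limma, Benjamini-Hochberg). Differences are given ± SE, from 2 eye arrays against 4 brain arrays. The median difference of all probes was 0.01. The share of higher among the called probes was 57.3%, and it turned to 44.4% when arrays were centred on their median without loess, so the balance of the directions depended on the scaling. Against each region alone the counts were 2653 higher (12.6%) and 2171 lower (10.3%) for cortex, and 2622 higher (12.5%) and 1817 lower (8.64%) for cerebellum. For 4433 of the called probes both eye arrays lay outside the range of the 4 brain arrays, which held for 59.5% of all probes.

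A measurement of the reference bears on all sizes that follow. The Cy5 signal, which came from the same reference RNA on every array, was itself higher on the eye arrays for many genes whose Cy3 signal was very bright in eyes. For Lgsn, which encodes the lens protein lengsin, Cy3 was 190600 and 143900 scanner units in eyes and 60.4 to 67.6 in brain. Cy5 was 42900 and 26940 in eyes and 50.5 to 60.4 in brain. The difference was 4.58 on the ratio, while on the Cy3 signal alone, which was not well above background on any brain array, Lgsn was at least 2270-fold higher in eyes. Such a bound sets the mean of the brighter tissue against the higher of the lowest signal that counted as well above background and the signal of the probe itself. It is the lowest of 3 Cy3 scales (after loess and quantile normalisation of both channels, after quantile normalisation of Cy3 alone, and as scanned), and without a dye swap it is open to dye bias. Pdc showed the same, with Cy5 at 4775 and 5603 in eyes against 71.0 to 74.7 in brain. In contrast, for Mgarp both scales were close (10.29 on the ratio and 9.78 on Cy3), with Cy5 at 2579 and 2460 in eyes and 1670 to 2447 in brain. Over all probes Cy5 was called in 2.3%, 213 higher and 270 lower in eyes, and the cause was not tested. For genes where the scales lie far apart, Cy3 values are given beside the ratio below, though not for every gene.

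**Figure D1:**
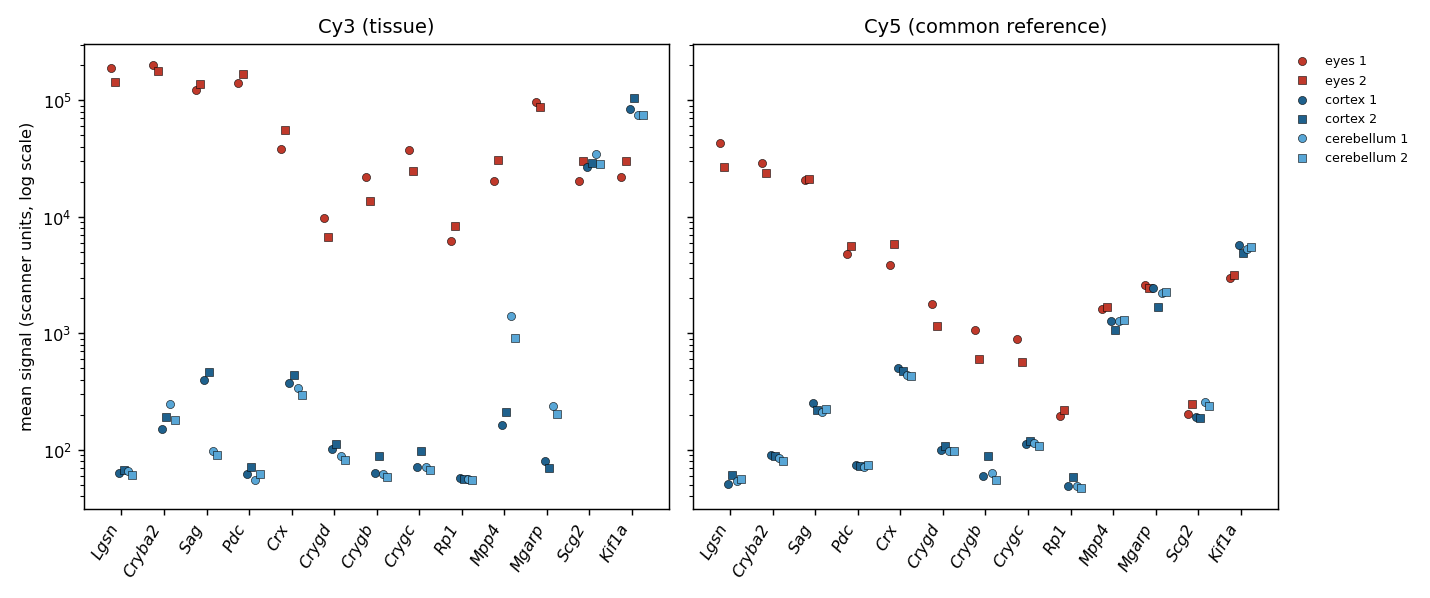
Mean signal of 13 genes on the 6 arrays in scanner units (log axis), for Cy3, the tissue (left), and Cy5, the common reference (right); red marks eyes, dark blue cortex and light blue cerebellum, with circles for replicate 1 and squares for replicate 2. Lgsn, Cryba2, Sag and Pdc have Cy5 signals of 4775 to 42900 on the eye arrays and of at most 252.5 in brain, whereas Mgarp, Mpp4 and Scg2 have similar Cy5 signals on all 6.

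Photoreceptor genes were among the largest gains. Of 53 genes in the photoreceptor list 10 were tested, 8 were called higher in eyes than in brain and none lower, and the median difference was 4.81 (12.4% of all probes were called higher). The list held 7 to 9 higher calls and 0 lower calls under every alternative setting. Pdc, phosducin, which binds the beta and gamma subunits of transducin, measured 6.94 on each eye array, -0.25 and 0.00 in cortex, and -0.33 and -0.18 in cerebellum. The eye values stood far above the brain values, and no array of the other 12 tissues exceeded 0.57. Pdc differed by 7.13 ± 0.14 (SE) with an adjusted p of 1.71e-17 (limma). Its Cy3 signal was not well above background on any brain array, so on that channel it was at least 2111-fold higher in eyes. The 3 scales gave 2111 to 3705 for Pdc.

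Sag, rod arrestin, which switches off light-activated rhodopsin, was at 4.86 and 4.98 in eyes, 1.21 and 1.33 in cortex, and -0.80 and -0.89 in cerebellum. Both eye arrays were above every other array, and the brain was split, with cortex above cerebellum. The difference was 4.71 on the ratio and 9.77 on Cy3. Crx itself was at 5.11 and 5.09 in eyes and between 0.15 and 0.24 on the 4 brain arrays, a difference of 4.91 ± 0.20 (adjusted p = 4.17e-13, limma) and of 7.78 on Cy3. Rp1, a microtubule protein of the photoreceptor outer segment, was at 6.25 and 6.40 in eyes and between 0.00 and 0.21 in brain, and was at least 89.9-fold higher on Cy3. These genes separate eyes from brain without overlap.

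Mpp4, a scaffold protein of the photoreceptor synapse, was at 5.23 and 5.67 in eyes, -2.23 and -1.82 in cortex, and 0.95 and 0.42 in cerebellum. Mgarp, a mitochondrial protein found in photoreceptors, showed the largest difference of all named genes on the ratio (on Cy3 those of Lgsn, Pdc and Cryba2 were larger), with 7.14 and 6.90 in eyes, -4.14 and -3.85 in cortex, and -2.51 and -2.60 in cerebellum (10.29 ± 0.32, adjusted p = 1.04e-14, limma). Crb1, a polarity protein at the outer limiting membrane of the retina, rose by 1.96. Rxrg, a nuclear retinoid receptor of cones, gave 4.93 and 4.56 in eyes, 4.48 and 5.12 in cortex, and 1.49 and 1.71 in cerebellum. Its eye values lay within the cortical range, so the call against brain (1.55 ± 0.35, adjusted p = 0.0015, limma) came from cerebellum, and it was lost with slide as a fixed block (0.80, adjusted p = 0.33). Cnga3, the cone channel subunit, and Pde6d, a carrier of lipid-modified proteins, differed by 0.50 and 0.84 and were not called.

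All 7 lens genes tested, of 27 listed, were called higher in eyes in every alternative setting, with a median of 4.58. Crygb, a gamma-crystallin of lens fibres, was at 5.90 and 5.78 in eyes and between -0.04 and 0.04 on the 4 brain arrays. No other array exceeded 0.27, the difference was 5.83 ± 0.11 (adjusted p = 1.11e-17, limma), and Crygb was at least 212-fold higher on Cy3. Crygf differed by 5.06 (4.84 on Cy3), Crygd by 3.90 (6.31), Cryga by 3.56 (5.77) and the beta-crystallin Cryba2 by 4.01 (10.46). Crygc was at 6.95 and 6.77 in eyes and -0.56 to -0.20 in brain, but it was also at 6.36 on array fat 1, where Cryga was at 2.98. With fat, bone and large intestine left out, the Crygc difference of 7.31 (8.72 on Cy3) was the same and its adjusted p went from 4.34e-06 to 1.11e-18 (limma). The 60-base probes of the 5 gamma-crystallins share runs of at most 8 bases with each other, and their match to the transcripts of the other family members was not examined.

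**Figure D2:**
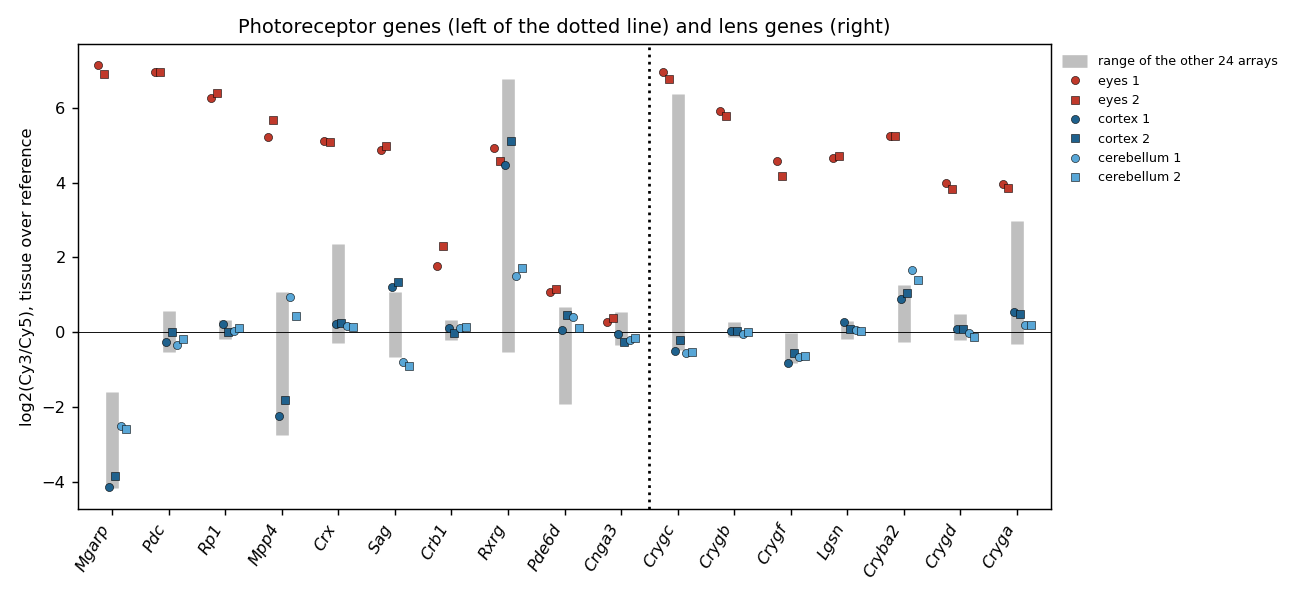
log2(Cy3/Cy5) of the 10 photoreceptor genes (left of the dotted line) and the 7 lens genes (right) on the eyes (red), cortex (dark blue) and cerebellum (light blue) arrays, with the range of the other 24 arrays as a grey bar. All lens genes and most photoreceptor genes have both eye arrays far above the 4 brain arrays, Rxrg overlaps cortex, and the bars of Crygc and Cryga reach up to the array fat 1.

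Genes of the inner retina and the pigment epithelium moved less. Of 6 inner retina genes tested 2 were called higher, against 12.4% of all probes, and this count ran from 0 to 3 over the alternatives. Gabrr2, a GABA receptor subunit typical of retinal bipolar cells, was at 0.08 and 0.37 in eyes and -1.02 to -0.94 in brain (1.20 ± 0.14, adjusted p = 1.19e-06, limma). Lhx4, a LIM homeodomain factor of cone bipolar cells, was at 0.78 and 1.36 in eyes and -0.07 to 0.12 in brain (1.01 ± 0.17), and it fell under the threshold without eyes 2 (0.72). On Cy3 alone neither passed the threshold, at 0.97 and 0.74. Tfap2b, a factor of amacrine cells, was at 5.54 and 5.55 in eyes, 3.25 and 2.01 in cortex, and 5.04 and 5.20 in cerebellum, so on the ratio the eyes stood near cerebellum and above cortex (difference 1.67, adjusted p = 0.11, limma). The spread is pooled over all tissues, and Tfap2b was at 5.10 on array fat 1 and -0.05 on fat 2. With fat, bone and large intestine left out, a choice made after seeing the data, the same difference had an adjusted p of 2.24e-05 (limma). On Cy3 alone the Tfap2b difference was 3.26 and passed the threshold (adjusted p = 0.032, limma). Of 6 pigment epithelium and melanocyte genes 1 was called, Rdh10, which makes retinal from retinol (2.63 ± 0.31), against 12.4% of all probes.

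Genes of the outer coats and of neighbouring tissue were also higher in eyes. In the list for cornea, ciliary body and eye matrix 7 of 15 genes tested rose (against 12.4% of all probes), with a median difference of 1.05. Pkp1, plakophilin 1 of epithelial desmosomes, was at 4.32 and 3.57 in eyes, -2.41 and -1.79 in cortex, and -2.97 and -3.04 in cerebellum (6.50 ± 0.33, adjusted p = 1.67e-11, limma), while skin reached 5.15. Plet1, a surface protein of epithelia, was at 6.73 and 5.78 in eyes and -2.15 to -1.77 in brain, with large intestine up to 6.10. Both genes were above all 4 brain arrays, but for each of them some arrays of other tissues reached into or above the range of the eye arrays. Serpinb5, an epithelial serpin, was at least 23.4-fold higher on Cy3. Col9a1, a collagen of the vitreous, was at 3.02 and 3.04 in eyes against 0.85 to 1.01 in brain and at most 1.12 elsewhere, so it was above all 28 other arrays. Aqp1, a water channel of the ciliary epithelium, rose by 4.24 ± 0.28, and bone had the highest array of all at 3.24.

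Of 13 skeletal muscle genes tested 10 rose (12.4% of all probes did), with a median of 2.39, and 6 to 10 rose in the alternatives. Actn3, the alpha-actinin of fast fibres, was at 1.52 and 1.36 in eyes and -3.35 to -3.0 in brain (4.57 ± 0.54, adjusted p = 1.81e-06, limma), below the 5.52 reached in bone. Ankrd23, an ankyrin repeat protein of striated muscle, was at 4.12 and 3.59 in eyes and -0.30 to 0.61 in brain. Myl1, a fast myosin light chain, was at least 12.7-fold higher on Cy3. The weakest calls were Tnni1, slow troponin I (1.80 ± 0.68, adjusted p = 0.042, limma), which was lost without any single one of the 6 arrays (adjusted p = 0.067 to 0.23), and Mstn, myostatin (1.98 ± 0.62, adjusted p = 0.017, limma), which was lost on Cy3 alone (1.15, adjusted p = 0.10) and, at a like size, without eyes 1 (2.04, adjusted p = 0.084), without eyes 2 (1.92, adjusted p = 0.094) or with slide as a fixed block (2.02, adjusted p = 0.39). Among the 12 other tissues, muscle or bone had the highest mean for 12 of the 13 genes.

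A gained probe was defined as one that was not neural, was called higher in eyes than in brain, and exceeded the mean of the 12 other tissues by a log2 difference of at least 2 at an adjusted p under 0.05, which 6.43% of all probes did. There were 570, of which 84 carried a symbol. Their median difference from brain was 3.48. For 348 of them both eye arrays were above all 28 other arrays (4.4% of all probes). The class was chosen on the same values, so a larger share than that was built in. The highest of the 12 other tissues, which could lie above the eyes, was skin for 112 of them (19.6%), then lung for 62 and stomach for 51. On Cy3 alone 468 of the 570 stayed in the class (82.1%), and Cy5 was called higher in eyes for 163. Other gained genes with the largest differences were Fabp12, a fatty acid binding protein (6.39 ± 0.18), Tafa3, a secreted chemokine-like protein (6.25 ± 0.30), H60c, a ligand of the NKG2D receptor of lymphocytes (6.23 ± 0.36), and AI661453 (7.11 ± 0.29). Fabp12 reached 5.87 on a stomach array, and H60c reached 3.60 in skin. AI661453 was at 4.48 and 4.34 in stomach, with a mean above that of the eyes. A further 1991 probes were higher in eyes than brain but neither gained nor neural. For 1855 of them the brain lay below the mean of the 12 tissues. The rule takes a brain below the eyes and leaves out neural probes, so it favours a low brain.

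The neural probes were those with a mean of cortex and cerebellum above the 12 other tissues by at least 2 on the log2 scale (adjusted p under 0.05), 1532 in all (7.29%), of which 231 carried a symbol. Since this rule and the classes below are built from the same values, their counts are descriptions. A neural probe was kept when it was not called between eyes and brain and the eyes exceeded the 12 tissues by at least 1. It was reduced when it was called lower in eyes but still exceeded them by 1, and lost when it was called lower and did not. By these rules 571 probes were kept (37.3%), 529 reduced (34.5%), 382 lost (24.9%) and 46 higher in eyes than in brain (3%), and 4 fell in no class. The median difference was -0.52 for the kept, -1.57 for the reduced, -2.18 for the lost and 1.72 for the higher probes. Both eye arrays were outside the brain range for 312 kept, 514 reduced, 372 lost and 39 higher probes, where 59.5% of all probes were, and the classes themselves rest on the difference from brain.

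**Figure D3:**
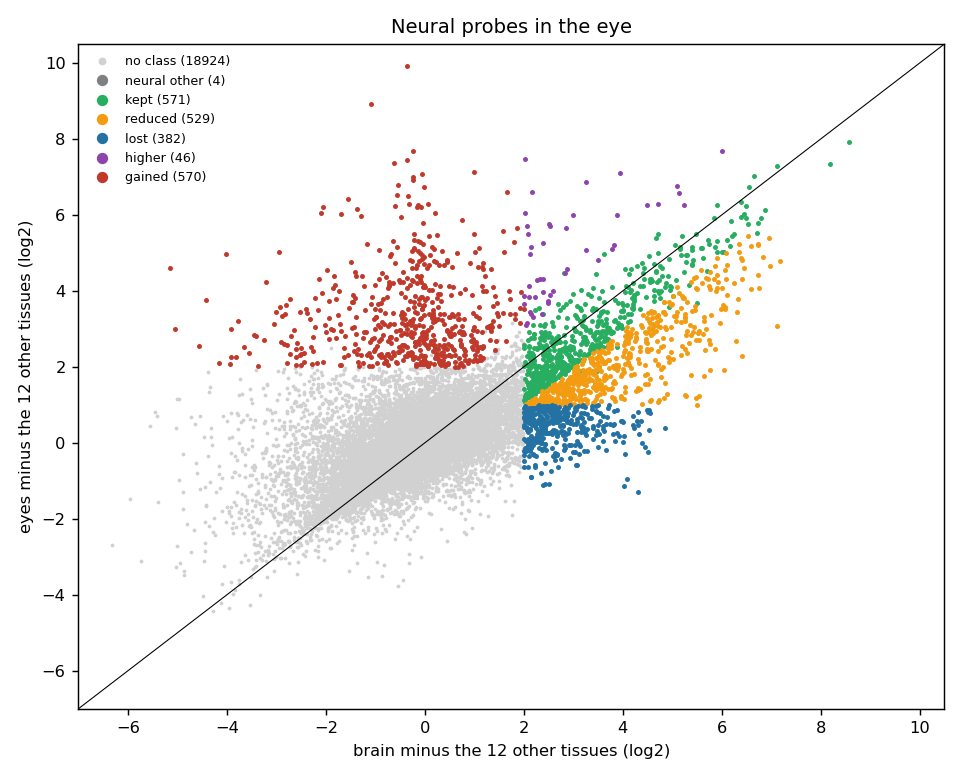
Each point is 1 of the 21026 probes, with the brain minus the mean of the 12 other tissues on the x axis and the eyes minus the same mean on the y axis (both log2), coloured by class with the number of probes in brackets. Kept probes lie near the diagonal, reduced and lost probes lie below it, and gained probes rise along the left.

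The kept and the higher class depended on the scale more than the reduced and lost classes did. Of the 46 higher probes 24 stayed in that class on Cy3 alone (52.2%), where a probe must also be neural on that scale. Of the 571 kept on the ratio 297 were also kept on Cy3 alone (52%), 213 were reduced there and 4 lost, and Cy5 was called lower in eyes for 91 of them. For the reduced and lost classes 404 (76.4%) and 309 (80.9%) stayed. Of the 8 named kept genes furthest above the 12 tissues, 6 were kept on both scales. Scg2, secretogranin II of dense core vesicles, was at 7.99 and 8.18 in eyes, 8.04 and 7.68 in cortex, and 7.94 and 7.91 in cerebellum. The tissues overlapped, and the difference was 0.19 ± 0.47 on the ratio and 0.08 on Cy3, with a large intestine array at 6.42 as the highest elsewhere. Sphkap, an anchoring protein for protein kinase A, was at 6.90 and 6.96 in eyes, 6.93 and 6.68 in cortex, and 7.21 and 7.05 in cerebellum, with no other array above 1.74 (-0.56 on Cy3).

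The other 4 kept on both scales were 2810037O22Rik (0.16 ± 0.26), Vat1l (0.07 ± 0.56), the long noncoding RNA Tunar (-0.39 ± 0.21) and Srrm3, a splicing factor of neuronal microexons (0.15 ± 0.15). In contrast, Slc1a2, the glutamate transporter of astrocytes, was at 6.32 and 6.42 in eyes, 7.28 on each cortex array, and 6.99 and 7.0 in cerebellum, and its difference was -0.77 on the ratio but -2.78 on Cy3. Rgs8, a regulator of G protein signalling rich in Purkinje cells, was at 4.57 and 4.64 in eyes, 4.55 and 4.47 in cortex, and 4.85 and 4.93 in cerebellum. Its Cy3 signal was 5585 and 9417 in eyes, 12370 and 14930 in cortex, and 81780 and 74420 in cerebellum, so the ratio was flat where Cy3 differed by -2.16 and Cy5 by -2.02. Kif1a, the motor of synaptic vesicle precursors, stood at -0.70 on the ratio and -1.75 on Cy3, and Dner, a Notch ligand of neurons, at -0.79 and -2.11. Of the 21 kept genes in the lists 6 were kept on both scales.

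**Figure D4:**
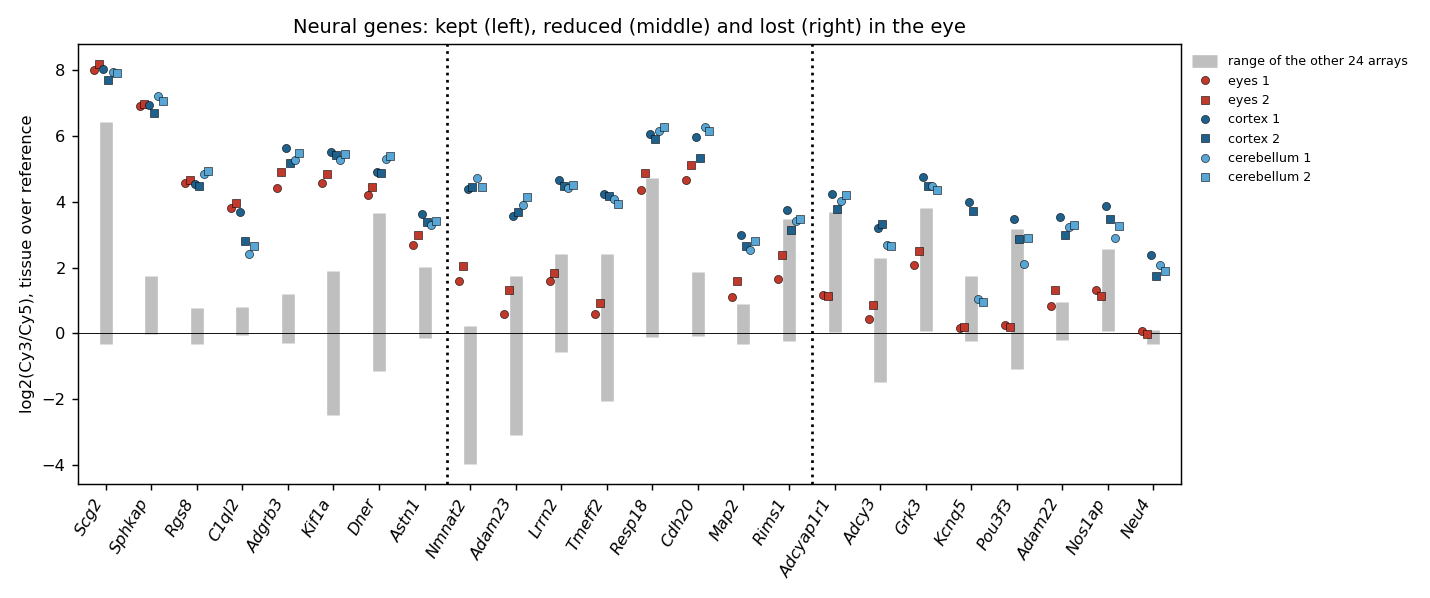
log2(Cy3/Cy5) of 24 neural genes, 8 kept (left), 8 reduced (middle) and 8 lost (right), on the eyes (red), cortex (dark blue) and cerebellum (light blue) arrays, with the range of the other 24 arrays in grey. The eye arrays lie among the brain arrays for Sphkap, at and just above them for Scg2, between the brain and most of the grey range for reduced genes, and at or inside the grey range for most lost genes.

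Among neuronal genes grouped by function, none of the lists for axons, synapses, channels, adhesion or G protein signalling had a member called higher in eyes, and 43 of their 99 entries were called lower, against 9.24% of all probes. These lists were chosen for neural roles, so the brain was the higher side for many of them. For the axon, dendrite and cytoskeleton 6 of 14 fell (median -0.87). Nmnat2, an enzyme of NAD synthesis that protects axons, was at 1.60 and 2.06 in eyes, 4.39 and 4.45 in cortex, and 4.72 and 4.46 in cerebellum (-2.67 ± 0.24, adjusted p = 5.62e-08, limma), and it was still 4.09 above the 12 tissues. Map2, the dendritic microtubule protein, was at 1.11 and 1.59 in eyes and 2.54 to 2.99 in brain (-1.40 ± 0.15), and the call was lost with slide as a fixed block (-0.96, adjusted p = 0.068, limma). Kifap3, a kinesin 2 subunit, differed by -1.60 and Srgap2, a membrane-shaping protein of spines, by -1.73.

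For the synapse and regulated secretion 7 of 20 fell (median -0.77). Ptprn, a protein of dense core vesicles, was at -0.04 and 0.52 in eyes and 2.40 to 3.20 in brain (-2.61 ± 0.33), so it fell while the granule protein Scg2 did not. Rims1, a scaffold of the presynaptic active zone, was at 1.65 and 2.38 in eyes and 3.14 to 3.75 in brain (-1.43 ± 0.36), and without eyes 1 the call was lost (-1.06, adjusted p = 0.10, limma), as it was with slide as a fixed block (-1.02, adjusted p = 0.083), with the scanner software's processed signals (-0.94, adjusted p = 0.38) and with the authors' value table (-0.94, adjusted p = 0.32). Abat, which breaks down GABA, differed by -1.55 and Nos1ap, an adaptor of neuronal nitric oxide synthase, by -2.15. Of 24 channels and receptors 10 fell (median -0.56). Adcyap1r1, the receptor of the peptide PACAP, was at 1.16 and 1.15 in eyes, 4.22 and 3.79 in cortex, and 4.01 and 4.21 in cerebellum (-2.90 ± 0.18, adjusted p = 3.41e-10, limma), and it was lost. Asic1, an acid-sensing channel, differed by -2.58 and Dpp10, a partner of Kv4 potassium channels, by -2.47. Adra2a, the alpha 2A adrenergic receptor, was at 3.96 and 4.46 in eyes and 3.84 to 4.40 in brain, and was kept on both scales. The large intestine arrays stood above both, at 5.52 and 5.16. Oprk1, the kappa opioid receptor, was not well above background on either eye array and was at least 2.75-fold higher in brain on Cy3.

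For adhesion and guidance 11 of 22 fell (median -0.90). All 3 members of the ADAM family on the list, Adam11, Adam22 and Adam23, catalytically inactive receptors of LGI proteins, fell, by 1.31, 2.19 and 2.87 on the log2 scale, though Adam11 was not called on the processed signals (-0.86). Tmeff2, a membrane protein with follistatin domains, was at 0.58 and 0.92 in eyes and 3.94 to 4.23 in brain (-3.36 ± 0.28). For G protein and calcium signalling 9 of 19 fell (median -1.03). Both beta-adrenergic receptor kinases were lower, Grk2 by -2.06 ± 0.13 and Grk3 by -2.23 ± 0.35, and so was adenylyl cyclase 3, Adcy3, by -2.32 ± 0.20. Rgs8 and Rgs20, in contrast, were not called on the ratio. Of 9 glia and myelin genes 4 fell (median -0.95). Neu4, a sialidase of oligodendrocytes, was not well above background on either eye array and was at least 2.80-fold higher in brain on Cy3. Gpr37l1, a receptor of astrocytes, was at 4.06 and 3.42 in eyes and 5.01 to 5.65 in brain, a difference of -1.67 on the ratio and of -6.64 on Cy3, where Cy5 differed by -4.88, and the ratio call was lost without eyes 2 (-1.35, adjusted p = 0.054, limma).

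**Figure D5:**
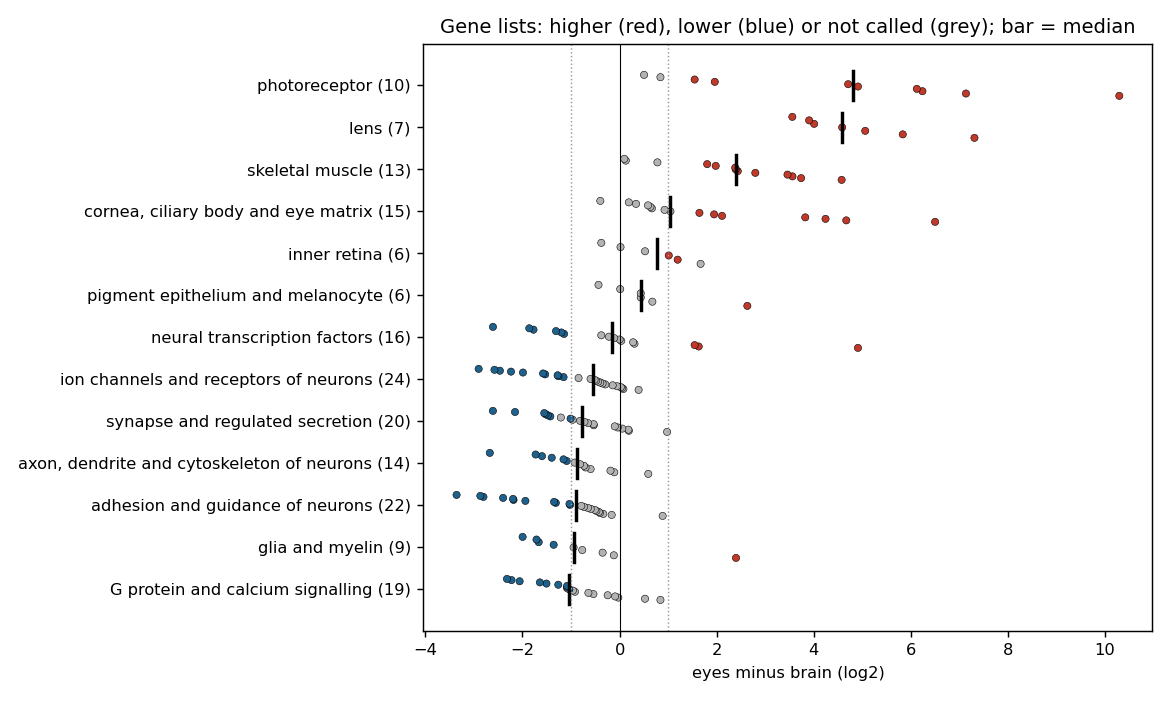
Difference between eyes and brain (log2) of every tested gene in 13 lists, with the number of genes in brackets, red for called higher, blue for called lower, grey for not called, and a black bar at the median of the list. Photoreceptor and lens medians lie above 4, muscle above 2, and the lists of neuronal function lie below 0.

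The named genes that fell most on the ratio were mostly little studied, and on Cy3 the order differed. Mir9-3hg, the host transcript of a brain microRNA, was at 0.77 and 1.17 in eyes, 5.20 and 4.96 in cortex, and 4.90 and 4.82 in cerebellum (-4.00 ± 0.13, adjusted p = 3.64e-14, limma). A830018L16Rik was at 0.38 and 0.80 in eyes, 6.02 and 5.59 in cortex, and 3.21 and 2.99 in cerebellum. Tmem88b, a membrane protein, was at 2.63 and 1.80 in eyes and 5.89 to 6.06 in brain (-3.76 ± 0.31, and -4.80 on Cy3). In each of them the eye arrays lay well below all brain arrays. The other 7 (1700057H15Rik, Tmem229a, Fam81a, Brinp3, Tmeff2, Cracdl and 9330159N05Rik) differed by -3.70 to -3.30. These 10 and the 10 with the largest rise were called in every alternative setting.

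Only 5 of the 46 neural probes higher in eyes than in brain carried a symbol. Pdzph1, a PDZ domain protein, was at 5.25 and 5.36 in eyes, 3.42 and 3.30 in cortex, and 1.63 and 1.40 in cerebellum (2.86 ± 0.28). Mir124-2hg, the host transcript of a copy of the neuronal microRNA miR-124, was at 6.94 and 7.04 in eyes, 5.80 and 5.0 in cortex, and 5.31 and 5.17 in cerebellum (1.67 ± 0.15). Adamts18, a secreted protease (1.64 ± 0.22), Amer2, a regulator of Wnt signalling (1.39 ± 0.26), and Plk5, a polo-like kinase of neurons (1.32 ± 0.26), were the others. In all 5 both eye arrays were above all 4 brain arrays. None of the 5 was called from the signals that the scanner software had processed, where Pdzph1 stood at 1.12 and Mir124-2hg at 0.19, while on Cy3 alone they stood at 4.97 and 3.55. With slide as a fixed block Plk5 was not called at 0.28 (adjusted p = 0.70, limma) and Amer2 lost its call (1.61, adjusted p = 0.079), and without eyes 2 Amer2 stood at 0.86.

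Some neural differences were those of 1 brain region. En1, a factor of the midbrain and hindbrain, was at -3.04 and -3.19 in eyes, -3.25 and -3.11 in cortex, and 0.55 and 0.80 in cerebellum, so the eyes stood near cortex. St18, a zinc finger factor, was at 3.02 and 3.07 in eyes, 3.35 and 2.45 in cortex, and 5.72 and 5.45 in cerebellum, and the eyes again lay in the range of cortex. Of 16 neural transcription factors 3 rose (Crx, Rxrg and Lmx1a, the last not on the processed signals, at 1.23) and 6 fell, among them Pou3f3, a POU factor (-2.61 ± 0.52), where 12.4% of all probes rose and 9.24% fell. Of the 571 kept probes, 90 were called against cortex alone, 51 against cerebellum alone and 9 in opposite directions against cortex and cerebellum. Called against both regions were 412 of 529 reduced, 333 of 382 lost, 27 of 46 higher neural and 529 of 570 gained probes. These classes rest on a call against the mean of the same regions, so the counts are descriptions.

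The 2 eye arrays differed in their neural content. Of 1531 neural probes with both values, 1321 were higher on eyes 2 than on eyes 1 (86.3%, median difference 0.31), compared with 52.9% of all probes (0.02). For gained probes the share was 55.3%, and for the 111 gained probes with both values whose next tissue was skin it was 35.1% (-0.21). Genes of both kinds show it: Nmnat2 and Map2 were higher on eyes 2, and Pkp1, Plet1 and Lad1, the epithelial basement membrane protein ladinin, were higher on eyes 1. Without eyes 1 there were 703 kept and 327 lost neural probes, and without eyes 2 there were 528 and 442.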

How the data were processed

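The arrays were two-colour Agilent oligonucleotide arrays of 15 tissues, with 2 arrays per tissue. The authors extracted the spots with Feature Extraction 9.5.1.1 (per the file headers), and the deposited spot files give mean signal and local background per channel as intensity, with outlier, saturation and background flags as other values. The authors' table of 25030 probes is in log10 units. Set against the scanner values over 11667 bright probes, it followed log10 Cy3 (slope 0.998) less the deviation of log10 Cy5 from its mean over arrays (slope -0.997), with array medians of 2.50 to 2.65.

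Mean signals were background-corrected by normexp (offset 50). Control spots and 475 outlier-flagged spots were left out, each array was normalised by loess, and spots of a probe were averaged. Of the 25030 table probes, 21026 were tested, those with Cy3 well above background in both replicates of 1 or more tissues. No spot was saturated, and 93 tested probes lacked a value on 1 or more of the 6 arrays. Linear models with 1 coefficient per tissue over all 30 arrays were fitted in R 4.3.3 with limma 3.58.1 (15 residual degrees of freedom, prior 2.94), so the spread is pooled over tissues. All tests were two-sided, with Benjamini-Hochberg adjustment over all probes of a comparison, and the comparison of eyes with brain was tested on simulated data. Brain is the mean of cortex and cerebellum. The linear ratio is 2 to the power of the log2 value. The series text gives bone and fat only 1 replication, although each has 2 arrays. The paper gives another age than the labels.

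Symbols came from probe lists of the study, which name 5049 of the tested probes, and 4702 of these matched a current symbol (RefSeq, GRCm38.p6). The lists are shortened and 19.9% of the matched names are on chromosome 1, so the named genes are no even sample of the genome, and counts over all probes include unnamed ones. The rule for names took the 10 largest differences in each direction with both eye arrays outside the brain range, the 8 kept probes furthest above the 12 tissues, up to 8 neural probes higher in eyes, and the genes of 13 lists. Members and lists were chosen with earlier results of these data known, and not every gene named by the rule is reported here. Each list gene had 1 probe. Alternatives changed the background correction, scaling, filter, threshold, blocks and samples, and their effect is given in the closing part.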

Additional observations from a re-analysis of the deposited data

Results flagged for a closer look

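For 3 named genes the eyes were called higher than one brain region and lower than the other. The difference between those effects is cortex minus cerebellum, and it passed its own test. Opposite calls already require the regions to differ, so that test adds nothing separate. Plekhd1 (3830431G21Rik on the array) was 1.84 above cortex and 1.17 below cerebellum in eyes (eyes minus cerebellum -1.17), with cortex minus cerebellum at -3.01 (adjusted p = 2.06e-06, limma). Ildr2 (D1Ertd471e) lay the other way, at -1.61 against cortex and 1.27 against cerebellum, with cortex minus cerebellum at 2.88 (adjusted p = 4.26e-05, limma). 4930594M22Rik was at 1.15 against cortex and -1.47 against cerebellum, with cortex minus cerebellum at -2.62 (adjusted p = 0.00015, limma). In all, 32 probes were called in opposite directions, 20 of them higher than cortex.

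The Cy5 signal of the common reference, which is no measurement of the tissue, differed between the eyes and brain arrays for 483 probes (2.3% of those tested, limma). Among the gained probes it was called in 28.6%, always higher in eyes, and among the kept neural probes in 17%.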

How the results depend on the processing

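The 20 named genes with the largest differences were called in the same direction in every alternative, and no called value changed direction. Of 108 called genes followed by name, 74 stayed called in all alternatives. The 571 kept neural probes became 333 on Cy3 alone, 1102 with the scanner software's processed signals, 1001 with the authors' value table and 907 with slide as a fixed block. The 46 higher neural probes became 72 with processed signals, 29 with median centring and 74 with slide as a fixed block. With all noncontrol probes the lost class held 588 and eyes against cerebellum 6682 calls, where more probes were tested. At a log2 difference of at least 2 there were 1586 calls against brain, 1771 against cortex and 1638 against cerebellum. Leaving out 1 array at a time gave 3907 to 4535 calls against brain, 4085 to 4782 against cortex, 3636 to 4385 against cerebellum, 528 to 703 kept, 439 to 550 reduced, 327 to 442 lost, 36 to 49 higher and 557 to 579 gained probes. Leaving out fat, bone and large intestine, chosen after seeing the data, gave 543 kept, 386 lost and 570 gained. Replicate numbers do not pair the samples: replicate deviations correlated at r = -0.205 between eyes and cortex, 0.0631 between eyes and cerebellum and 0.218 between cortex and cerebellum. A fit with the replicate number as a block gave 4563 calls against brain, 4846 against cortex, 4454 against cerebellum, 1532 neural, 568 kept, 532 reduced, 382 lost, 46 higher and 572 gained probes, with 90 list genes called. The cause of these changes was not tested. Slide as a block rests on lung, which has an array on each of slides 2 and 5. Probes dim in one tissue give only bounds.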
